A study of Mus musculus with 6 samples.

Results

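BC025446 and 9030619P08Rik were the genes of the Ly6 cluster on mouse chromosome 15 that appeared in the table of genes changed in Smarcad1-KO colon crypts. They were picked by name, which gave 2 of the 61 genes in the table. Gene expression had been measured by RNA-seq in whole crypts, the pits of the colon wall that hold dividing cells at their base and differentiated epithelium above, in 3 wild type (WT) and 3 Smarcad1-KO (KO) libraries. The comparison asked which transcripts change when Smarcad1, a chromatin remodeller of the SNF2 family, is deleted in this epithelium. All mice were C57BL/6, and the study's methods describe males kept in a specific opportunistic pathogen free facility. In KO mice the Cre recombinase, made under the Villin promoter in intestinal epithelium (Vil-cre), removed Smarcad1 exons flanked by loxP sites. Cells of a crypt preparation in which Villin is not active therefore keep the gene. Whether the WT mice carried the loxP sites or the Cre transgene is not given in the sources used here, and neither are the ages. The libraries are labelled as triplicates, and the labels do not say whether each came from a separate animal.

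The authors' deposited table gives 1 mean log2 expression value for each genotype and holds genes with a false discovery rate (FDR) under 0.05. Values of single libraries, their spread and their depth were not analysed here. Because both genes stand in the table for their difference between KO and WT, that difference is a description and carries no test. The mean log2 value of Smarcad1 was 2.87 for KO and 4.58 for WT, so the libraries labelled KO had the lower level of the targeted gene. In RNA from whole crypts, fewer cells of a type and less RNA per cell cannot be told apart.

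Genes of the Ly6/uPAR family encode small cysteine-rich proteins that are mostly held at the cell surface by a glycosylphosphatidylinositol (GPI) anchor, and a few are secreted. The mouse cluster on chromosome 15 holds familiar surface markers of blood cells, such as Ly6a (Sca-1), Ly6c1, Ly6c2 and the granulocyte antigen gene Ly6g. In the intestine, Ly6a is known as a marker of epithelium that is repairing an injury.

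In the deposited table BC025446 lies on the plus strand at chr15:75216592-75222659 (GRCm38). GENCODE M21, an annotation of the same build, has it as a protein-coding gene at chr15:75216376-75222661, which is 216 bases longer at the start and 2 at the end. RefSeq (GRCm38.p6) calls the gene at this place Ly6g2. 9030619P08Rik lies at chr15:75427607-75431829 on the minus strand. It is a transcribed pseudogene in both GENCODE M21 and RefSeq, whereas the deposited table pairs it with a coding feature and a protein identifier. The first coding exon shows how near the 2 transcripts are to each other. Both stretches run 5′ to 3′ from the start codon for 70 bases to the end of that exon, and capitals mark the 7 bases that differ. The BC025446 stretch is chr15:75216685-75216754 on the plus strand and the 9030619P08Rik stretch is chr15:75431367-75431436 on the minus strand, both from GENCODE M21 transcripts.
BC025446 start exon: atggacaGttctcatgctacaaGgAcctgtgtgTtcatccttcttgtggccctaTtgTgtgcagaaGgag
9030619P08Rik start exon: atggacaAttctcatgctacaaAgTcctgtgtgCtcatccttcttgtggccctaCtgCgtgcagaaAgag

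Over the whole frame the pair remained close. The 405 coding bases of BC025446, stop codon included, were aligned with the 525-base transcript of 9030619P08Rik, read from the matching start codon. Of 408 aligned columns 326 were identical (79.9%), with 67 substitutions, a gap of 3 bases in BC025446 and gaps of 12 bases in 9030619P08Rik. Among the substitutions, G344A, counted from 1 at the A of the BC025446 start codon, falls in codon 115 of BC025446 and makes it a stop codon in 9030619P08Rik. It leaves 19 codons of BC025446 beyond it. The stretches below cover this place and run to the end of the BC025446 frame, 108 bases each, and differ by 14 substitutions with 0 gaps. Capitals mark the codon that holds G344A and the final stop codon. They are chr15:75220731-75220838 on the plus strand for BC025446 and chr15:75427964-75428071 on the minus strand for 9030619P08Rik.
BC025446 end of the frame: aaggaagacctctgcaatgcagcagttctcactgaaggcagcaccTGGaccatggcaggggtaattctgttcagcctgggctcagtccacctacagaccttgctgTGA
9030619P08Rik end of the frame: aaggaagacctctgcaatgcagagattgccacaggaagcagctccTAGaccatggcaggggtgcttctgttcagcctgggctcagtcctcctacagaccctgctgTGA

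The other transcripts of 9030619P08Rik had shorter frames from the same start codon. The transcript of 525 bases reads 111 codons before its stop codon, that of 857 bases reads 49 codons and that of 435 bases reads 31 codons. In the 857-base transcript the exon after the start exon is 79 bases long, against 111 bases in the 525-base one. BC025446 reads 134 codons in its transcripts of 758 and 1498 bases. Its transcript of 1470 bases, the one named beside it in the deposited table, reads 124 codons and ends its frame in the last exon. The plot of transcripts and frames sets the 6 transcripts side by side. The expression values merge all isoforms of a gene, so they do not say which of these transcripts was present.

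**Figure D1:**
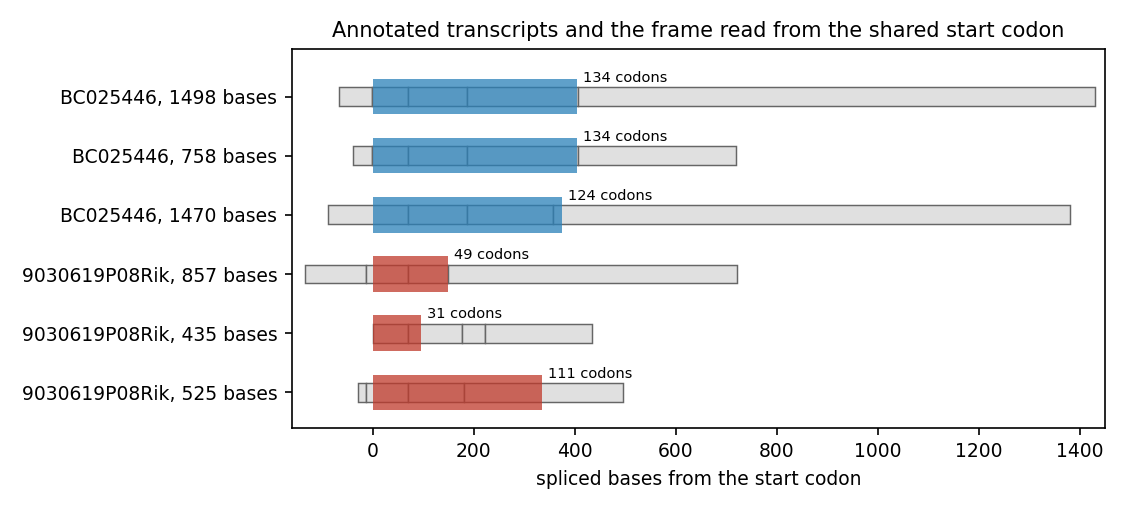
Exons of the 3 BC025446 and 3 9030619P08Rik transcripts of GENCODE M21 as boxes, along the spliced bases from the shared start codon, with the reading frame from that codon in colour and its number of codons beside it. The 9030619P08Rik frames end after 31, 49 or 111 codons, those of BC025446 after 124 or 134.

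BC025446 was higher in KO. The authors' mean log2 values were 2.57 for the KO and 1.18 for the WT libraries. The difference of 1.39 corresponds to a KO level 2.62 times the WT level. Centred on the median difference of the listed genes it was 0.88. Back-transformed from the log2 means, the levels were 5.93 in KO and 2.26 in WT, a gain of 3.67 units. The gene was among the lowest of the table in both genotypes: only 4 listed genes had a lower WT mean and 8 a lower KO mean.

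9030619P08Rik was also higher in KO and by more. The authors' means for it stood at 4.40 (KO) and 2.52 (WT) on the log2 scale. The difference was 1.88, a KO level 3.69 times that in WT. Back-transformed in the same way, the levels were 21.2 in KO and 5.74 in WT, a gain of 15.4 units. In WT only 7 listed genes were lower, whereas in KO 22 were. The differences of the 2 genes were 0.49 apart on the log2 scale, with no spread to set this against.

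Both genes were thus on the higher side, as was 55.7% of the table (34 of 61 genes). Both also had a KO mean more than 1 log2 unit above the WT mean, which held for 11 genes, or 18.0% of the table. These shares are given as background, since the table was selected on the same contrast. Sorted by the difference from the most increased gene down, 9030619P08Rik was number 5 and BC025446 number 10 of the 61. The median difference was 0.51 over all listed genes and 0.76 over the 34 higher ones. The scatter of KO against WT means shows both genes above the line of equal levels and below the middle of the table, where the median was 4.96 in WT and 5.03 in KO.

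**Figure D2:**
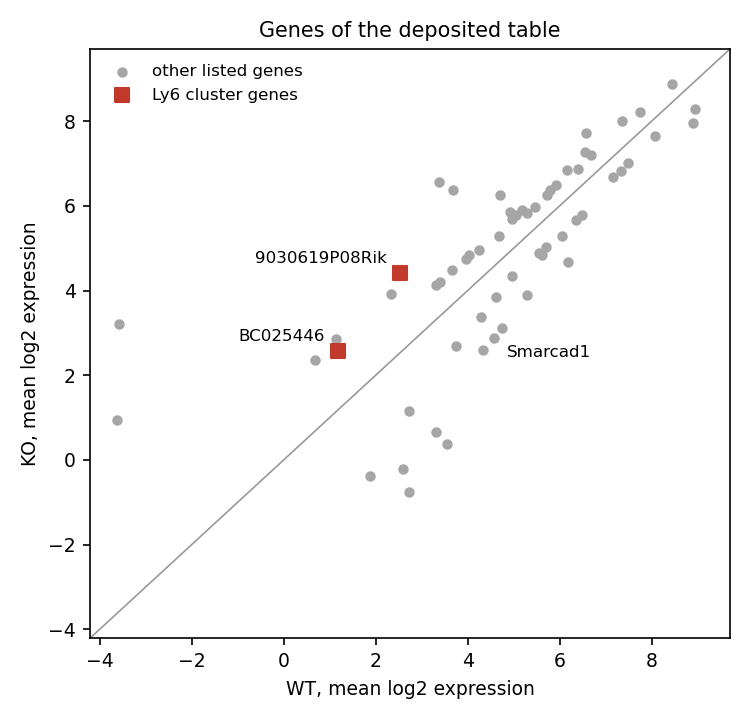
Mean log2 expression in KO (vertical axis) against WT (horizontal axis), 1 point for each of the 61 genes of the authors' table, with the line of equal levels. The Ly6 cluster genes (squares) lie above the line, at WT means of 1.18 and 2.52, and Smarcad1 lies below it.

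Levels of the 2 genes were set against each other on 2 scales, because the study describes its colon crypt values as normalised to total reads but names RPKM, which also divides by transcript length, for fold changes. As deposited, the log2 level of 9030619P08Rik was above that of BC025446 by 1.84 in KO (3.57-fold) and by 1.34 in WT (2.53-fold). The WT level of 9030619P08Rik lay 0.05 below the KO level of BC025446, which makes these the nearest neighbours in the order. For levels per kb of exon, GENCODE M21 gave 1588 exon bases for BC025446 and 935 for 9030619P08Rik. The BC025446 exons begin before the deposited start of the gene, so the 1588 bases reach beyond the interval given by the authors. Per kb of exon, the log2 levels of BC025446 were 1.90 in KO and 0.51 in WT. Those of 9030619P08Rik were 4.50 in KO and 2.62 in WT per kb. On this scale the pseudogene was above BC025446 by 2.60 in KO (6.06-fold) and by 2.10 in WT (4.30-fold). Its WT level per kb then exceeded the KO level of BC025446, so the order of these neighbours turned with the scale. The difference between KO and WT of 1 gene does not depend on its length. Whether neighbouring levels differ beyond the spread of the libraries was not tested.

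**Figure D3:**
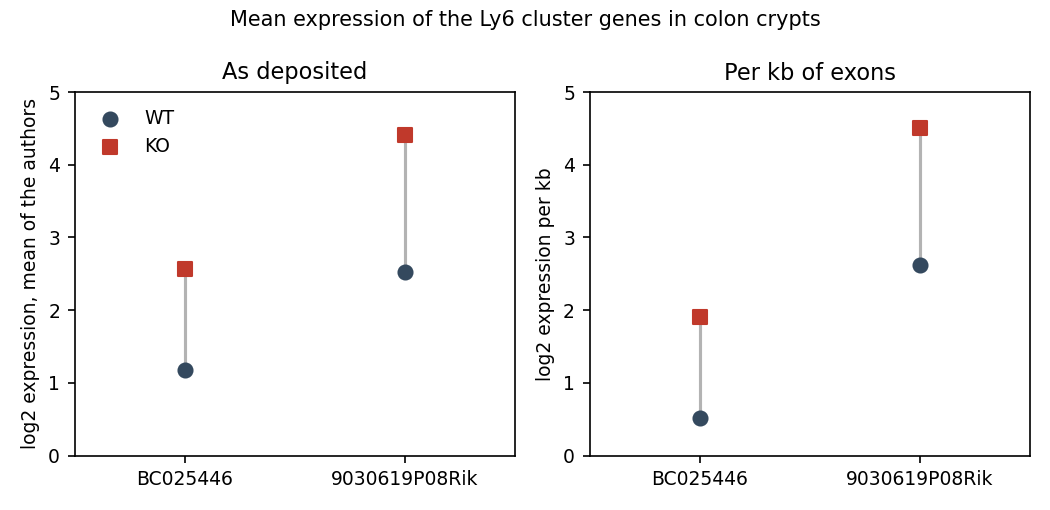
Mean log2 expression of BC025446 and 9030619P08Rik in WT (circles) and KO (squares), as deposited by the authors (left) and divided by kb of exon (right), with no error since 1 mean is given for each genotype. KO lies above WT for both genes, and 9030619P08Rik in WT is level with BC025446 in KO on the left and above it on the right.

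The genes with the nearest pair of means were taken as the most alike, by Euclidean distance over the KO and WT log2 means, that is over 2 points that come from the same 6 libraries. BC025446 was nearest to Dlk1, a Notch ligand homologue known from fetal tissues, at a distance of 0.29. The authors' means for Dlk1 were 2.85 (KO) and 1.14 (WT). The next were 2610524H06Rik at 0.53, with a difference of 1.68, and Mctp1, which encodes a membrane protein with C2 domains, at 1.79. For 9030619P08Rik the nearest gene was Mctp1 at 0.51, with log2 means of 3.93 (KO) and 2.34 (WT). Agphd1 followed at 0.84 and Zfp809, a zinc finger gene known for silencing retroviral DNA, at 0.90. These had smaller differences, 0.82 for Agphd1 and 0.81 for Zfp809. The Ly6 cluster genes were 2.27 apart, so that 9030619P08Rik was number 5 in nearness to BC025446 while BC025446 was number 12 in nearness to 9030619P08Rik.

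The other genes of the cluster had no value in the table. Of 23 Ly6/uPAR genes from Psca to Gpihbp1, all of them annotated in GENCODE M21, 2 were listed, and both were higher in KO. The table as a whole holds 0.110% of the 55450 genes of that annotation (61 genes), and the number of genes the authors tested was not used here. The cluster was chosen because it holds these 2 genes, so nothing is read from its count. The absent genes include the surface markers Ly6a, Ly6c1, Ly6c2 and Ly6g, the widely expressed Ly6e, and Gpihbp1, which carries lipoprotein lipase in capillaries. Of 24 family genes on other chromosomes, 0 were listed. A gene outside the table was not called by the authors at their threshold and is not shown to be unchanged.

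Genes of the interferon response, of epithelial repair and of other cell types were looked up in the same way. Of 30 interferon-stimulated genes 0 were listed, and so were 0 of 14 genes of regenerative or fetal-like epithelium. With 0.110% of annotated genes in the table, a count of 0 for lists of this size is near the background and is no result about them. Of 16 immune cell markers 1 was listed: Gzmb, a granule protease of cytotoxic lymphocytes, was lower in KO, with log2 means of 1.17 (KO) and 2.72 (WT). The direction was opposite to that of the Ly6 cluster genes, and its part in their values was not tested. Markers of stromal cells (0 of 8 listed) and of colon epithelium (0 of 8 listed) had no value, so the level of the defining epithelial markers in these crypts was not analysed here.

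The cluster spans 885 kb, chr15:74714839-75599481, in which GENCODE M21 annotates 50 genes, 20 of them pseudogenes. BC025446 and 9030619P08Rik are on opposite strands, with 205 kb between them. In this gap lie 9 annotated genes, the family gene Ly6f and 8 pseudogenes, and 0 of the 9 were in the table. The nearest genes to BC025446 are the pseudogenes Gm28117, 18.7 kb below it, and Gm10238, 12.9 kb above it. Its nearest family genes are Ly6g, 57.2 kb below, and Ly6f, 45.8 kb above. 9030619P08Rik has Ly6l 17.6 kb above it, and its nearest neighbour on the other side is the pseudogene Gm3142 at 50.3 kb. No annotated gene overlaps either of them on either strand.

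**Figure D4:**
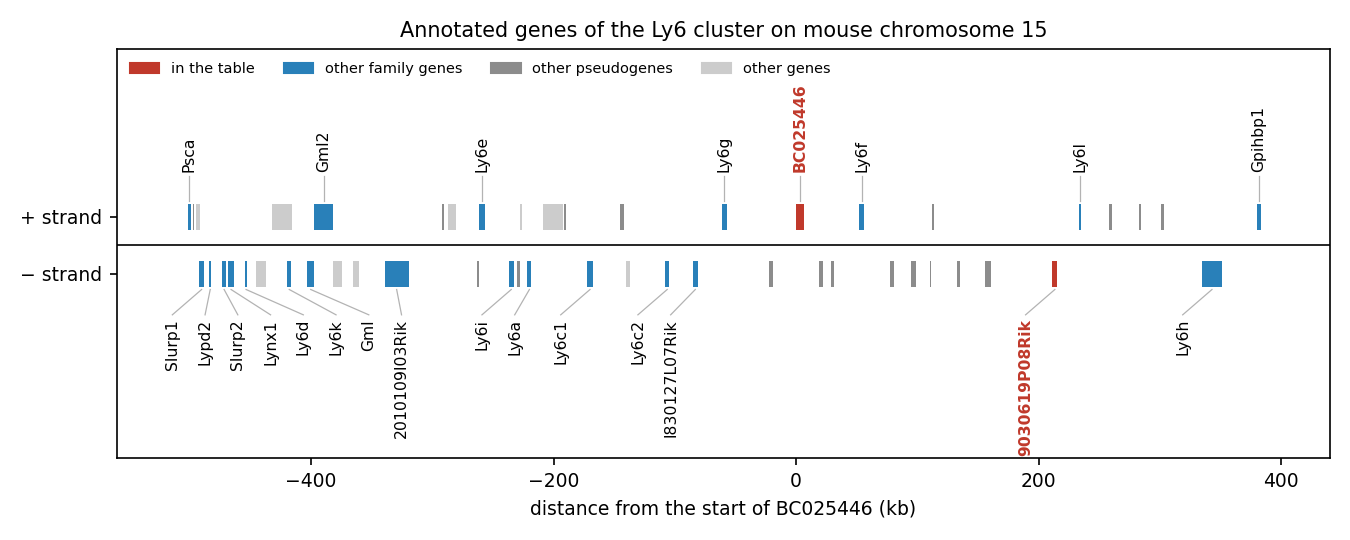
Annotated genes of the Ly6 cluster by strand, in kb from the start of BC025446, with the 2 listed genes, the other family genes, other pseudogenes and other genes in separate colours. The listed genes lie 205 kb apart on opposite strands, and 1 family gene, Ly6f, lies between them.

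The table held 5 more genes of chromosome 15, all outside the cluster, of which 2 were higher and 3 lower in KO. Below the cluster, Gsdmc2, a gasdermin gene, differed by 0.72 at 11.4 Mb from BC025446, and Osr2 differed by -0.78 at 39.9 Mb. Above it, the Polycomb group gene Cbx6 differed by -1.41 at 4.61 Mb, Mettl7a1 by 0.68 at 25.1 Mb and the mucin glycosyltransferase gene Galnt6 by -0.42 at 25.5 Mb. The nearest of these 5 genes lay more than 4 Mb from BC025446, and it was lower in KO.

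Because only uniquely mapped reads were counted, a gene with near-identical copies can lose reads. Words of 50 bases from the longest transcript of each cluster gene were therefore searched in 141767 annotated transcripts of GENCODE M21. For BC025446, 0 of 1449 words occurred in another gene. For 9030619P08Rik, 4 of 808 words did (0.495%), all in I830127L07Rik, a cluster pseudogene that RefSeq names Ly6a2. With shorter words of 30 bases the shares were 2.72% for BC025446 and 6.40% for 9030619P08Rik. With words of 50 bases, 9 of the other genes had a share above that of 9030619P08Rik. Ly6c1 led with 36.7%, followed by Gml2 with 25.0% and Gml with 18.6%. The share at 50 bases was 0 in 10 genes besides BC025446.

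**Figure D5:**
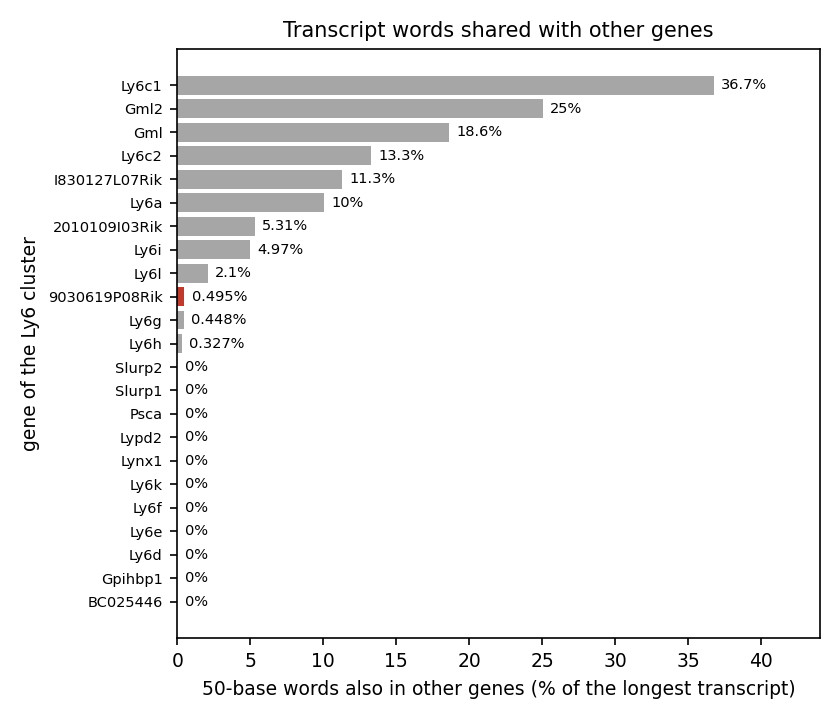
Share of the 50-base words of the longest transcript that also occur in transcripts of other genes, in percent, 1 bar for each of the 23 cluster genes. 9030619P08Rik is at 0.495% and BC025446 at 0 (6.40% and 2.72% with words of 30 bases, not plotted), while Ly6c1 reaches 36.7%.

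At the level of coding sequence the listed genes sat with the Ly6a, Ly6c and Ly6g branch of the family. BC025446 was most similar to Ly6g (86.4% identity), followed by Ly6a (84.7%) and Ly6f (83.2%). The pseudogene was compared over 396 bases with the coding sequences of the cluster only. These bases end where the BC025446 stop codon aligns, so the stretch was fitted to BC025446 and may favour it. Its identity to BC025446 was 79.9%, and 0 of the 20 other genes exceeded that value. The cluster pseudogene I830127L07Rik was left out of this comparison, and it shared 26 words of 30 bases with 9030619P08Rik. By that measure Ly6i with 12 words and Ly6g with 6 words were also nearer to 9030619P08Rik than BC025446 with 3 words. The cluster pseudogenes Gm28069 (8 words), Gm5960 (5 words), Gm28116 (4 words) and Gm3142 (4 words) were nearer too, so the order turned with the measure. The next closest coding sequences were Ly6g at 79.5%, Ly6a at 78.8% and Ly6i at 77.8%. Of the other genes 3 were closer to BC025446 than the pseudogene was. Outside this branch identity to BC025446 was 55.0% for Lynx1 and below that for the remaining 13 genes. Of these 20 genes 0 had a value in the table.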

How the data were processed

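The authors made stranded libraries starting from total crypt RNA, for what the study calls mRNA-seq. They trimmed reads with Trim Galore 0.4.2, mapped them to GRCm38 with HISAT2 2.0.1 and counted uniquely mapped reads over merged exons in SeqMonk. Whether counting used strand is not stated. The deposited values are log2 expression, 1 mean for each genotype, which the authors describe as normalised to total reads. Whether they were also divided by transcript length is not settled by the sources used here. The authors also deposited an FDR column, the corrected p-values of their DESeq2 test of KO against WT, which was used here only to check that 0 genes reached 0.05, and none of its values is printed. Tests and leave-one-out fits planned for single libraries were not made, since the deposited table holds genotype means and values per library were not used here. The differences are KO minus WT means.

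The genes and lists were chosen with earlier results of these data known. Named genes were the 2 members of the cluster in the table, Smarcad1, listed genes of the fixed lists, genes next to or between the members, and the 3 listed genes with the nearest means. Other listed genes of chromosome 15, and cluster genes named for sequence, were named after their values were seen. Of the 23 cluster genes, 21 were found in GENCODE M21 by symbol and the rest by a RefSeq synonym, and for 24 family genes elsewhere 23 were found. Sequences are from GENCODE M21 transcripts. Alignments used Biopython 1.88 with match 2, mismatch -2, gap opening -6 and extension -1, and identity to another gene is that of its closest transcript. Word search and alignment were tested on simulated data. The alternatives were pseudocounts of 1 and 0.1 on the linear scale, centring, a minimum mean log2 of 0, exact symbols, words of 30 and 100 bases, all transcripts, and the length of the longest transcript. Scripts ran in Python 3.11.15 with scipy 1.17.1, pandas 2.3.3 and numpy 2.4.6, and matplotlib 3.10.9 drew the plots.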

Additional observations from a re-analysis of the deposited data

How the results depend on the processing

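No paired analysis was possible because only the deposited table, with 1 mean per genotype, was analysed. Values per library, which the study gives elsewhere, were not used here. Leaving out single libraries was not run for the same reason, so the spread and the weight of any 1 library were not analysed. Depth was not analysed either. With a pseudocount of 1 the difference was 1.09 for BC025446 and 1.72 for 9030619P08Rik, lower by construction because the levels are low. Centred on the median of the listed genes, which is 0.51 above 0 because 34 of 61 were higher, the differences were 0.88 and 1.37. By their rank in the same list both genes lie above that median, so centring could not turn the direction and is no check of it. When genes whose mean log2 over both genotypes was negative were left out, 9030619P08Rik was number 3. Words of 30 bases occurred in other genes at 2.72% for BC025446 and 6.40% for 9030619P08Rik, and words of 100 bases at 0 for both. With the length of the longest transcript, the level per kb of 9030619P08Rik was 4.63 in KO and 2.74 in WT. In all, 11 values, the share for BC025446 with words of 100 bases among them, moved by less than 0.1 on the log2 scale or by less than 1.5 times.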
